A study of Bos taurus with 3 samples.

Results

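Autophagy is described here through 44 genes of its machinery and of its control by the kinases MTOR and AMPK, measured in bovine fetal fibroblasts. The genes were chosen by symbol, and all 44 have a row in the table of 31903 genes. RNA sequencing was done on 3 libraries of BFF116 cells, a culture of Bos taurus fetal fibroblasts used as nuclear donors for cloning. All 3 came from 70000 cells each, which were starved of serum for 48 h before harvest, so every library carries that treatment and no fed cells were measured. The labels call the libraries biological replicates but do not say whether they came from separate cultures or animals, and BFF116 is the only culture, so p-values and SDs measure the spread between these samples, some of which may be technical.

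Autophagy is the route by which a cell encloses part of its own cytoplasm in a double membrane, the autophagosome, and delivers it to the lysosome for digestion. In mammals the ULK kinase complex starts the process, a lipid kinase complex marks the membrane, lipid transfer proteins feed its growth, and LC3 and GABARAP proteins are coupled to it and hold cargo receptors. MTOR complex 1 restrains the ULK complex while nutrients and growth factors are present, and AMPK, which senses a shortage of energy, opposes MTOR and phosphorylates ULK proteins. Growth factor withdrawal, as in serum starvation, is a known way to lower MTOR activity. Much of this control acts on proteins, by phosphorylation and lipid coupling, and read counts do not measure it.

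The libraries held 8608350 (replicate 1), 4842331 (replicate 2) and 7122651 (replicate 3) gene counts, of which the 44 genes took 0.307, 0.280 and 0.265%. Reads in no annotated gene were 58.9 to 62.0% of each library. Of the fibroblast markers checked, 8 of 8 reached 1 CPM (gene counts per effective library size, scaled by TMM) in each library, with a summed level of 70918.5 to 79968.5 CPM, and the summed epithelial, leukocyte, endothelial and skeletal muscle markers stayed between 0.475 and 6.05 CPM, with EPCAM, PTPRC, KDR, MYOD1 and DES at 0 reads. The neural markers TUBB3, MAP2 and SOX10 summed to 8.16 to 9.47 CPM, and SOX10 had 0 reads. By the same rule of 1 CPM in each library, 1 of 3 leukocyte, 1 of 2 endothelial and 2 of 3 neural markers passed. None of the 4 epithelial or 3 skeletal muscle markers did. Replicates 1 and 3 were the least alike, with a Spearman correlation across 10434 genes of 0.933, against 0.958 for replicates 1 and 2 and 0.966 for replicates 2 and 3. These are correlations across genes, which are not independent replicates.

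Reads were found for nearly the whole machinery. Measured, which here means 1 CPM or above in each of the 3 libraries, were 40 of the 44 members (90.9%). The share was 34.6% among all listed genes and 61.2% among all genes with a read. The exceptions were the proteases ATG4B and ATG4D, the MTOR inhibitor DEPTOR and the AMPK subunit PRKAA2. The members were chosen with earlier results of these data known, so their share is a description only. The 40 measured members had a median of 40.2 CPM and 10 of them a mean of 100 CPM or more, against a median of 20.5 CPM over all 11047 measured genes, of which 15.4% reached a mean of 100 CPM. CPM is not corrected for transcript length, and no lengths were used, so an order of genes by CPM is an order of reads and not of transcripts per cell. Levels below are CPM in replicates 1, 2 and 3, or mean ± SD (n = 3).

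**Figure D1:**
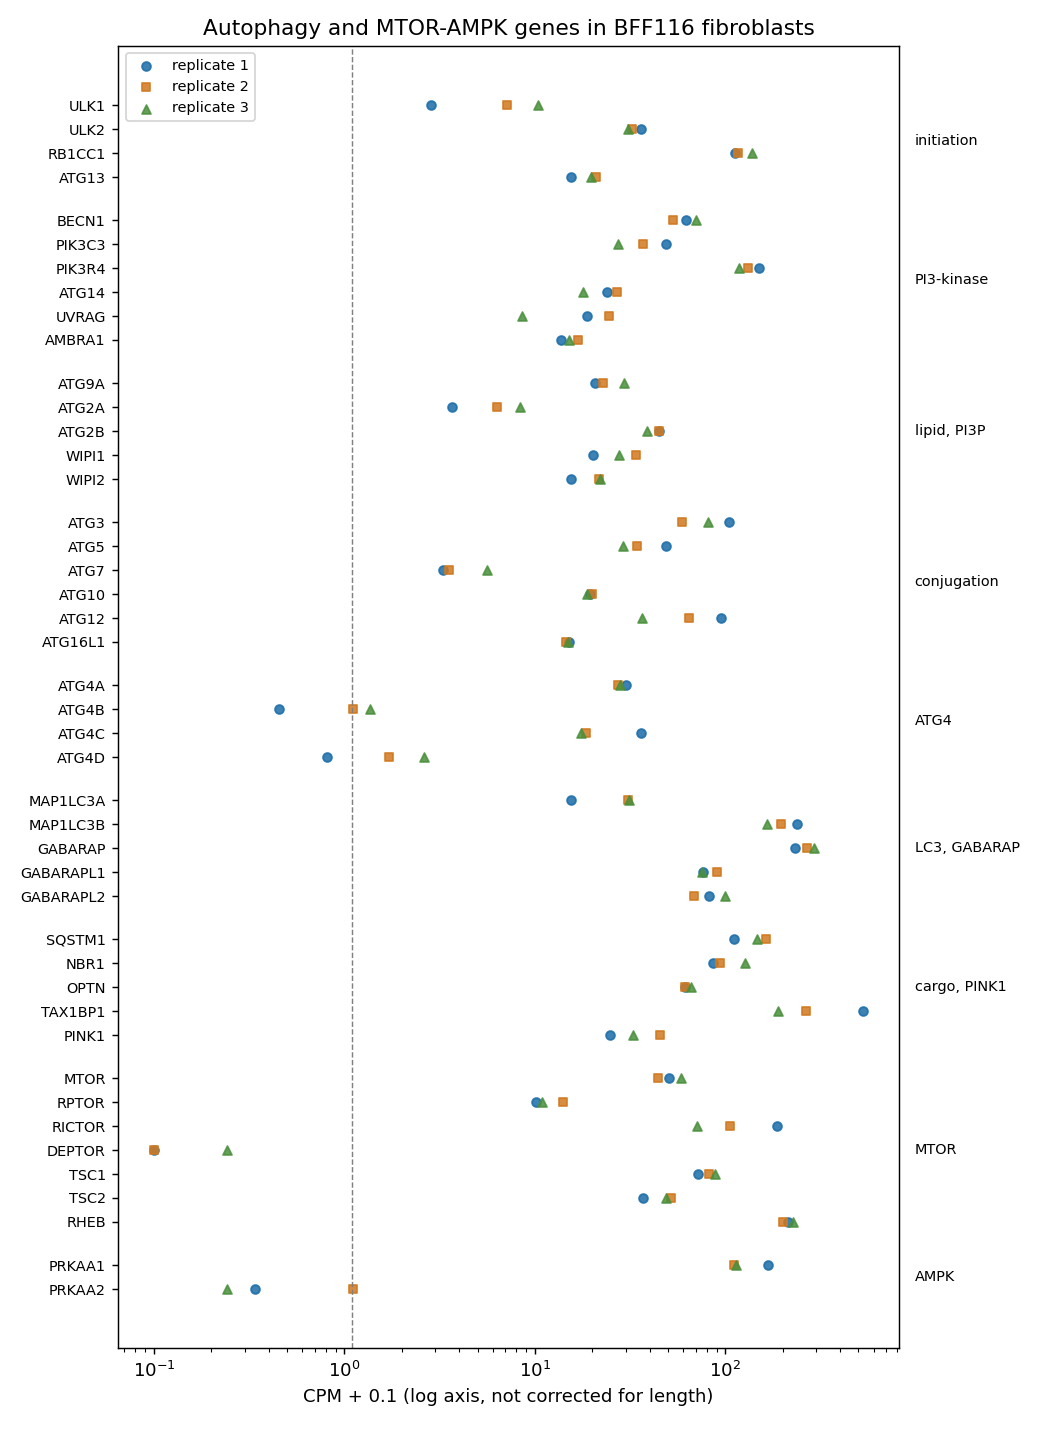
CPM + 0.1 of each of the 44 members on a log axis, by role, with 1 symbol for each replicate and a dashed line at 1 CPM. The members left of the line in some library are ATG4B, ATG4D, DEPTOR and PRKAA2, and TAX1BP1 lies farthest right at 531 CPM in replicate 1.

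All 4 members of the initiation complex were measured. The members do not hold every gene of a role, and further genes are given below. RB1CC1, the large scaffold of the complex (also called FIP200), stood at 112, 116 and 138 CPM, and the libraries lay within 1.23-fold of each other. ATG13, the adaptor that links the scaffold to the kinase, stood at 15.3, 21.0 and 19.7 CPM. The kinase ULK2 was steady at 35.9, 32.4 and 30.7 CPM. Its relative ULK1 stood at 2.73, 7.05 and 10.3 CPM, from 23, 35 and 73 reads, so replicate 1 was the lowest and the highest library was 3.76-fold above it. This was the widest span of any measured member.

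The class III phosphatidylinositol 3-kinase complex produces the lipid that marks the growing membrane, and all 6 members placed with it were measured. PIK3R4, the regulatory subunit VPS15, had the most reads of the group, at 150.5, 131 and 117 CPM. The catalytic subunit PIK3C3 (VPS34) stood at 48.9, 36.7 and 27.3 CPM and BECN1 (beclin) at 62.2, 53.0 and 70.1 CPM. PIK3C3 was thus highest in replicate 1 and lowest in replicate 3, and BECN1 was highest in replicate 3. BECN1 overlaps CNTD1, a gene with 565 reads, in the RefSeq gene table. ATG14 directs the complex to autophagosomes, and UVRAG takes its place in the form that acts on endosomes. ATG14 stood at 23.8, 27.0 and 17.7 CPM, and UVRAG at 18.6, 24.4 and 8.44 CPM, with replicate 3 the lowest for both. AMBRA1, a regulator of beclin, had the fewest reads of the group at 13.7, 16.7 and 15.1 CPM and differed little between libraries.

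All 5 members for ATG9, lipid transfer and lipid binding were measured. ATG2A and ATG2B encode bridge-like proteins that carry lipids into the membrane. ATG2B stood at 44.9, 44.5 and 38.8 CPM, and ATG2A at 3.56, 6.25 and 8.30 CPM, from 30, 31 and 59 reads. ATG2B was nearly level across libraries while ATG2A was lowest in replicate 1, with a 2.33-fold span. ATG9A, a lipid scramblase carried on vesicles, averaged 24.3 ± 4.56 CPM. The lipid-binding proteins WIPI1 and WIPI2 averaged 27.1 ± 6.74 and 19.6 ± 3.68 CPM, both lowest in replicate 1.

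Reactions like those of ubiquitin couple ATG12 to ATG5 and LC3 proteins to lipid, and all 6 members for conjugation were measured. ATG7, the activating enzyme for both reactions, had the fewest reads, 27, 17 and 39, or 3.21, 3.43 and 5.49 CPM. ATG3, the conjugating enzyme for LC3, had the highest mean in CPM of the group, at 105, 59.0 and 81.0, with replicate 2 the lowest. ATG10, which does the same for ATG12, was nearly equal across libraries at 19.5, 19.7 and 18.7 CPM, but its span holds RPS23, a ribosomal protein gene with 33106 reads, in the RefSeq gene table. ATG12 stood at 94.9, 64.1 and 36.4 CPM and its partner ATG5 at 48.8, 34.3 and 29.0 CPM. Both were highest in replicate 1 and lowest in replicate 3, with spans of 2.60-fold and 1.68-fold. ATG16L1, which binds the pair of them and places them on the membrane, had the smallest span of any member, 1.03-fold, at 15.0, 14.5 and 14.8 CPM.

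The ATG4 proteases trim LC3 and GABARAP proteins so that they can be coupled to lipid, and also release them again. ATG4A was steady at 29.8, 27.2 and 28.0 CPM, and ATG4C stood at 35.9, 18.5 and 17.3 CPM, with replicate 1 well above the others. ATG4B had 3, 5 and 9 reads, a total of 17 (exact 95% Poisson interval 9.90 to 27.2), and ATG4D had 6, 8 and 18 reads, a total of 32 (21.9 to 45.2). These intervals cover counting error only, because amplified reads carried no molecular identifiers and are not independent. Replicate 1 had the fewest reads of both although it was the deepest library, and without replicate 1 both were at 1 CPM or more in the remaining libraries. In the RefSeq gene table ATG4B lies between THAP4, with 245 reads, and DTYMK, with 16 reads, and ATG4D overlaps KRI1, with 75 reads. The reads of ATG4A were 34.4-fold those of ATG4B (exact 95% binomial interval 21.3 to 59.5) and the reads of ATG4C 16.2-fold those of ATG4D (11.3 to 23.9). The second ratio was 8.27 without replicate 1 and 28.1 without replicate 3.

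LC3 and GABARAP proteins are the small ubiquitin-like proteins that end up on the autophagosome, and all 5 of these among the members were measured. A further LC3 gene, MAP1LC3C, had 7, 0 and 4 reads and is not in the sum given here. GABARAP had the most reads, at 231, 267 and 292 CPM, and MAP1LC3B followed at 238, 197 and 166 CPM. GABARAP was lowest and MAP1LC3B highest in replicate 1. MAP1LC3A had the fewest reads of the 5 members, at 15.3, 30.6 and 31.0 CPM. Its replicates 2 and 3 were alike and replicate 1 was lower, with a 2.02-fold span. GABARAPL1 averaged 80.6 ± 8.52 CPM and GABARAPL2 83.2 ± 15.3 CPM, and their order changed between libraries. The group's sum was 642, 654 and 664 CPM, a mean of 653 ± 11.2 CPM. Relative to its mean this sum varied less between libraries, by a coefficient of variation of 1.71%, than that of each other role of the members (7.60 to 25.0%). This was singled out after the values were seen. Opposite differences, as of GABARAP and MAP1LC3B, offset each other in the sum, so it does not mean that each gene was steady.

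Cargo receptors bind ubiquitin-tagged cargo on one side and LC3 or GABARAP on the other. All 4 receptors among the members were measured, with PINK1, the kinase that tags damaged mitochondria. TAX1BP1 had the most reads of all members in total, at 531, 264 and 189 CPM, with replicate 1 2.80-fold above replicate 3. That rank rests on replicate 1, since GABARAP stood higher in replicates 2 and 3, at 267 and 292 CPM. SQSTM1 (p62), the receptor that is itself consumed with its cargo, stood at 111, 163 and 146 CPM, and NBR1 at 86.0, 94.1 and 127 CPM. Both were lowest in replicate 1, where TAX1BP1 was highest. The span of SQSTM1 overlaps MGAT4B, a gene with 298 reads, in the RefSeq gene table. OPTN (optineurin), a receptor for mitochondria and bacteria, was nearly equal across libraries at 61.6, 61.3 and 66.1 CPM. PINK1 stood at 24.8, 45.5 and 32.5 CPM, with replicate 2 the highest. The sum of the group was 814, 628 and 561 CPM, a mean of 668 ± 131 CPM, and TAX1BP1 alone differed by more between replicates 1 and 3 than the sum did.

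**Figure D2:**
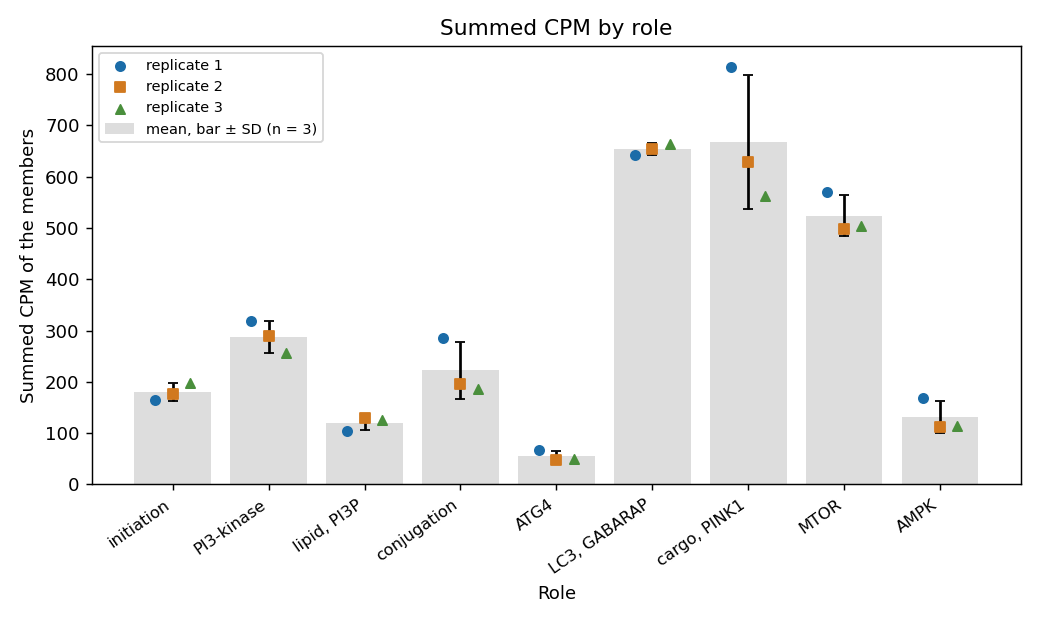
Summed CPM of the members of each role, with grey bars for the mean of 3 replicates, error bars for the SD and 1 symbol for each replicate. LC3 and GABARAP genes sum to 642 to 664 CPM in every library, and the cargo receptors with PINK1 range between 561 and 814 CPM.

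Of the 7 members for MTOR and its control, 6 were measured. MTOR, the kinase, stood at 50.6, 44.3 and 58.1 CPM. RPTOR (raptor), which defines MTOR complex 1, stood at 9.98, 13.9 and 10.8 CPM, and RICTOR, which defines MTOR complex 2, at 186, 106 and 70.5 CPM. MTOR and RPTOR had spans of 1.31-fold and 1.39-fold, and RICTOR was 2.64-fold higher in replicate 1 than in replicate 3. TSC1 and TSC2 form the complex that holds the GTPase RHEB inactive, and RHEB in its active form switches on MTOR complex 1. TSC1 stood at 72.0, 82.0 and 88.5 CPM, TSC2 at 36.8, 52.0 and 49.0 CPM, and RHEB, with the most reads of the group, at 214, 200.3 and 227 CPM. RHEB had a 1.13-fold span, and among measured members smaller spans were seen for ATG16L1, ATG10, OPTN and ATG4A.

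DEPTOR, a protein that binds and inhibits MTOR, had 0, 0 and 1 reads. A count of 0 allows up to 0.356 CPM in replicate 1 and 0.605 CPM in replicate 2, if reads could be assigned to the gene. Its neighbours in the RefSeq gene table, DSCC1 and COL14A1, had 353 and 12181 reads. MTOR had 1059 reads in all, a ratio to DEPTOR of 1059 (exact 95% binomial interval 190 to 41867). The ratio was 633 without replicate 1, and without replicate 3, where DEPTOR had 0 reads, the reads of MTOR were at least 215-fold higher against a floor of 3 counts over both libraries.

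AMPK has alternative catalytic subunits, and in these cells nearly all reads came from PRKAA1. PRKAA1 stood at 167, 111 and 113 CPM, from 1409, 553 and 805 reads. PRKAA2, the form known for its high level in skeletal muscle, had 2, 5 and 1 reads, a total of 8 (exact 95% Poisson interval 3.45 to 15.8). PRKAA1 had more reads than PRKAA2 in every library, and in all its reads were 346-fold those of PRKAA2 (exact 95% binomial interval 175 to 802). The ratio was 738 without replicate 2 and 226 without replicate 1.

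Relatives and partners were then set against each other within each library, in 21 pairs, as the log2 ratio of CPM + 0.5. Because no lengths were used, the size and sign of a ratio carry the lengths of both genes. Its change between libraries is free of them only if any bias by length was the same in each library, which was not tested. Of the 17 pairs with both genes measured, 16 had a ratio of 1 sign in all 3 libraries. The same count was not made for other gene pairs, so it is not a result about these relatives and partners. The exact two-sided sign-flip permutation test of 3 values cannot give a p below 0.25, so the pairs are described without a test.

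The ratio of ULK1 over ULK2 was -3.49, -2.12 and -1.53, a mean of -2.38 ± 1.00, and that of ATG2A over ATG2B was -3.48, -2.74 and -2.16, a mean of -2.79 ± 0.66. The ratio of MAP1LC3A over MAP1LC3B was -3.91, -2.66 and -2.41 (mean -3.00 ± 0.81). In these 3 pairs of relatives, and in RPTOR over RICTOR (-4.15, -2.88 and -2.65, mean -3.23 ± 0.81) and OPTN over TAX1BP1 (-3.10, -2.10 and -1.51, mean -2.23 ± 0.80), replicate 1 had the lowest ratio and replicate 3 the highest. These 5 pairs were singled out after their values were seen. Over all 17 pairs this order held for 8, which also include ATG5 over ATG12, BECN1 over PIK3C3 and ATG7 over ATG10. The reverse order held for 2, PIK3C3 over PIK3R4 and MAP1LC3B over GABARAPL2, and the other 7 had another order. Turning a pair round turns its order round, so the tally depends on which gene stands first. The remaining pairs of 4-fold or more were RB1CC1 over ATG13, at 2.68 ± 0.21, and ATG7 over ATG10, at -2.16 ± 0.41. Without replicate 1, OPTN over TAX1BP1 (mean -1.80) and ULK1 over ULK2 (mean -1.83) were under 4-fold.

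Several ratios varied less. TSC1 over TSC2 had a ratio of 0.96, 0.65 and 0.85 (mean 0.82 ± 0.15), WIPI1 over WIPI2 of 0.39, 0.63 and 0.33 (mean 0.45 ± 0.16), and PIK3C3 over PIK3R4 of -1.61, -1.82 and -2.09 (mean -1.84 ± 0.24). The SDs of these 3 ratios were below the median SD of 0.41 over the 17 pairs. BECN1 over PIK3C3 spanned 1.00 on the log2 scale, at 0.34, 0.53 and 1.34, and ATG14 over UVRAG spanned 0.88, at 0.34, 0.14 and 1.03. GABARAPL1 over GABARAPL2 was the 1 pair without a common sign, at -0.11, 0.39 and -0.39.

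**Figure D3:**
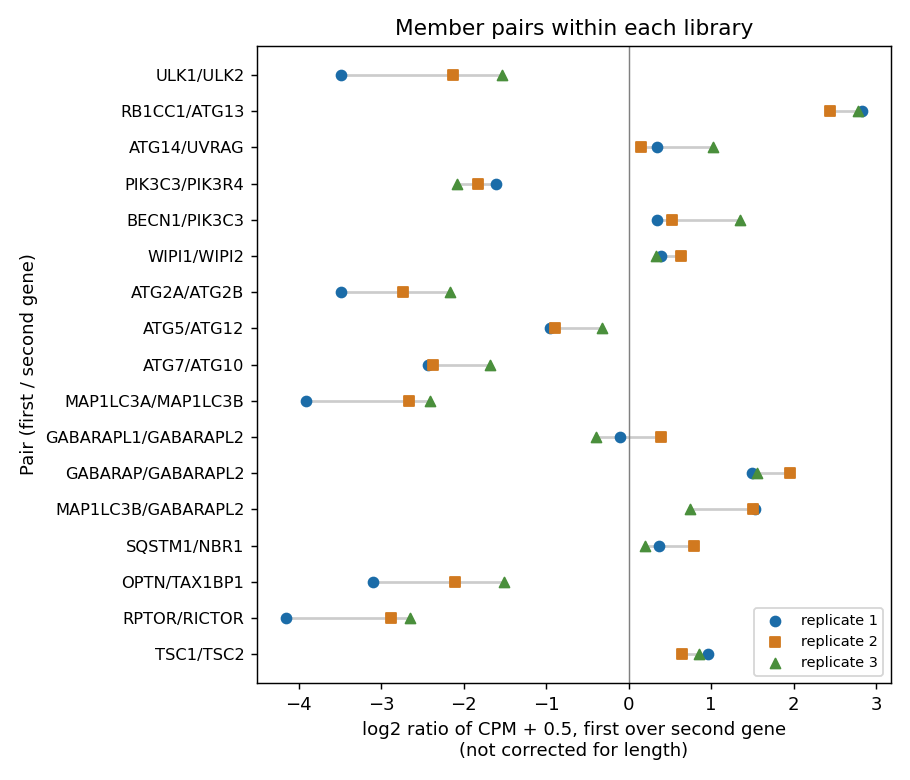
Log2 ratio of CPM + 0.5 of the first gene over the second in each library, for the 17 pairs with both genes measured, with 1 symbol for each replicate and a grey line for the range. The ratios of ULK1/ULK2, ATG2A/ATG2B, MAP1LC3A/MAP1LC3B, OPTN/TAX1BP1 and RPTOR/RICTOR lie farthest left in replicate 1, and TSC1/TSC2 and WIPI1/WIPI2 have short ranges.

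The members were tested for more spread between replicates than genes of their level show. The test compared each gene's counts with edgeR's trend of dispersion across 10434 genes that had 10 or more counts in every library, with Benjamini-Hochberg adjustment over all of them. Of the 40 members tested, 0 passed at an adjusted p under 0.05, and of all genes tested 0.0192% did. With DESeq2's dispersion trend in the same test the count was also 0 of 40. At an unadjusted p under 0.05 there were 3 of 40 members, against 5.24% of all genes. These were TAX1BP1 (adjusted p = 0.277 by edgeR), RICTOR (adjusted p = 0.614) and ATG12 (adjusted p = 0.835). The test was also run on simulated data for these 10434 genes. It called 3 of 97 tested genes raised 2-fold in 1 library and 65 of 98 raised 4-fold, so most 2-fold changes would be missed. Among 9850 tested genes that were not raised it called 3.

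The spread of the members was near that of all genes. Their median coefficient of variation was 18.6%, against 22.4% over all 10434 genes. The highest library was 2-fold or more above the lowest for 8 of 40 members, and for 24.6% of all genes. The 8 were ULK1, UVRAG, ATG2A, ATG12, ATG4C, MAP1LC3A, TAX1BP1 and RICTOR. Without replicate 1 the count was 1 of 40, UVRAG, and 6.66% of all genes. Without replicate 3 it was 2 of 40, TAX1BP1 and ULK1, and 10.8% of all genes. Without replicate 2 it stayed at 8 of 40, the same genes, with 18.2% of all genes.

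Members fell into opposite patterns over the libraries, as all genes did. Highest in replicate 1 and lowest in replicate 3 were 10 of 40 members (25.5% of all genes), namely ULK2, PIK3C3, PIK3R4, ATG2B, ATG5, ATG12, ATG4C, MAP1LC3B, TAX1BP1 and RICTOR. The reverse held for 10 of 40 (25.9% of all genes), namely ULK1, RB1CC1, ATG9A, ATG2A, WIPI2, ATG7, MAP1LC3A, GABARAP, NBR1 and TSC1. Both patterns cut across the roles, and the shares of the members were close to those of all genes. Replicates have no order, so the patterns name libraries only, and the part of RNA quality or library preparation in them was not tested.

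**Figure D4:**
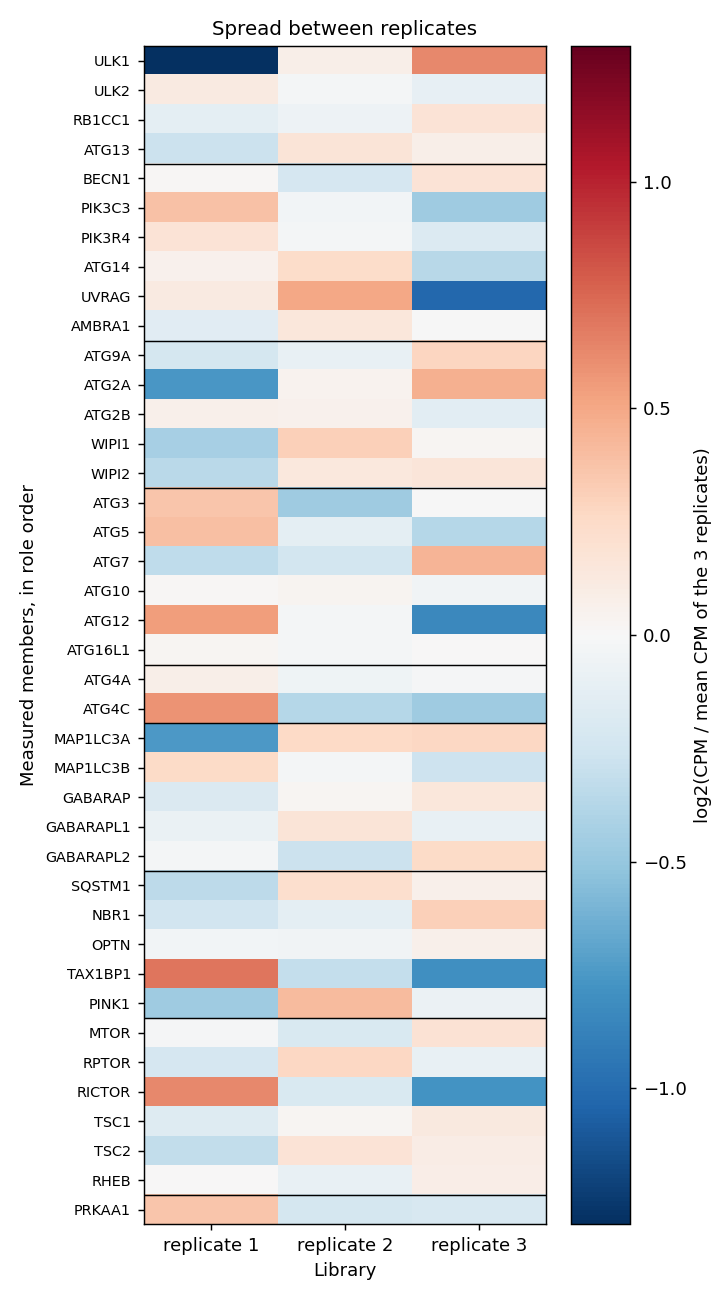
Log2 of CPM over the gene's own mean for the 40 measured members in each of the 3 libraries, in role order with lines between roles, red above and blue below the mean. Replicates 1 and 3 hold most of the strong colours, in opposite directions for TAX1BP1, RICTOR and ATG12 against ULK1 and ATG2A.

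**Figure D5:**
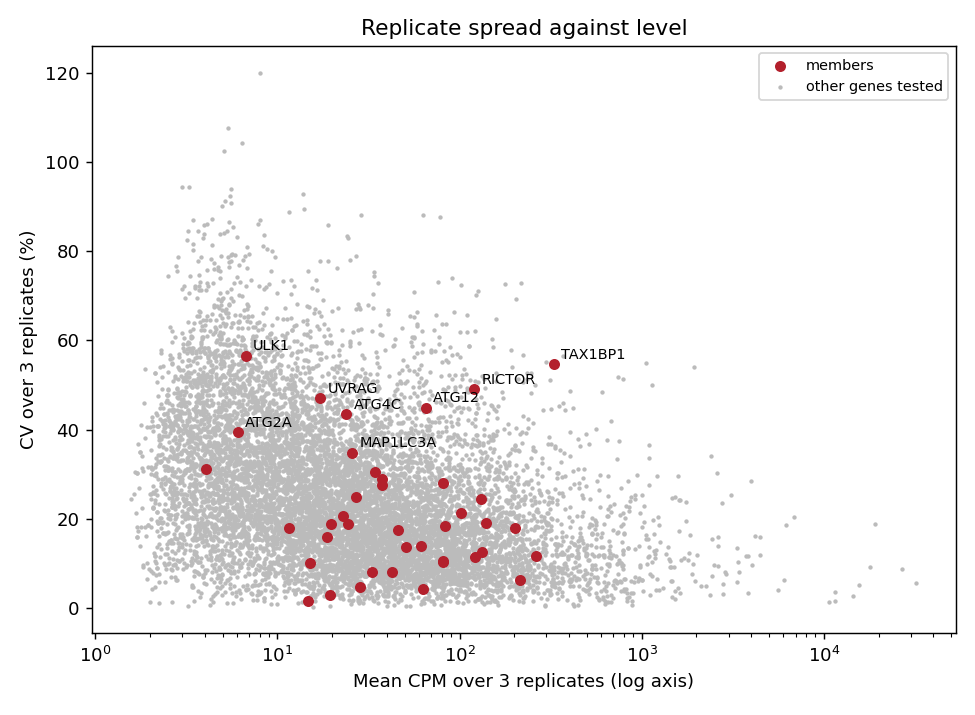
Coefficient of variation over 3 replicates in percent against mean CPM on a log axis, for the 40 members in red and the other genes tested in grey. Members with a span of 2-fold or more are named, and they lie within the cloud of other genes, with TAX1BP1 near its upper edge at 54.7%.

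The rest of the pathway was covered by 93 further genes in 7 lists, of which 87 have a row and 74 (85.1%) were measured, against 34.6% of all genes. These lists were also chosen with earlier results of these data known. The genes named here are among those with the most reads in each list and those below 1 CPM in some library. Of 74 tested for spread, 0 passed after adjustment by edgeR and 2 had an unadjusted p under 0.05, against 5.24% of all genes. TBK1, a kinase that phosphorylates cargo receptors, came closest, at 57.4, 18.5 and 9.99 CPM (adjusted p = 0.0518 by edgeR). The other was LAMTOR3, a subunit of the lysosomal scaffold of MTOR complex 1, at 95.0, 55.8 and 32.6 CPM (adjusted p = 0.608 by edgeR).

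Further autophagosome genes had 10 of 13 measured. VMP1, a scramblase of the endoplasmic reticulum that autophagosome formation needs, stood at 488 ± 36.7 CPM, with SH3GLB1 at 89.1 ± 7.19 and EI24 at 49.4 ± 4.30 CPM. Below 1 CPM in some library were ATG16L2 (4, 5 and 0 reads), ATG9B (1, 0 and 3 reads) and MAP1LC3C (7, 0 and 4 reads), so ATG16L1, ATG9A and the LC3 genes MAP1LC3A and MAP1LC3B were the forms measured in these families. Other cargo receptors and mitophagy genes had 8 of 10, with WDFY3, a scaffold for aggregates, at 215 ± 33.5 CPM, the mitochondrial receptor BNIP3L at 100.3 ± 8.91 CPM and TBK1 at 28.6 ± 25.3 CPM. PARK2 (parkin), the ubiquitin ligase that PINK1 recruits, had 2, 0 and 2 reads, and FAM134B, a receptor for endoplasmic reticulum, had 4, 2 and 2 reads. Fusion genes had 10 of 11, with the tethering subunits VPS41 at 191 ± 21.3 CPM and VPS33A at 51.9 ± 2.44 CPM and the GTPase RAB7A at 82.6 ± 19.2 CPM, and the exception was SNAP29 (14, 0 and 11 reads).

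Partners and substrates of MTOR had 10 of 12 measured. RPS6, a ribosomal protein phosphorylated downstream of MTOR, stood at 1643 ± 175 CPM, a level that is uncertain because reads with several alignments were not counted. MAPKAP1, a subunit of MTOR complex 2, stood at 105 ± 23.7 CPM and the translation repressor EIF4EBP2 at 76.0 ± 3.63 CPM, while PRR5 (4, 15 and 39 reads) and TELO2 (8, 5 and 9 reads) were below 1 CPM in some library. Amino acid sensing genes had 23 of 25, with the GTPase RRAGA at 189 ± 12.0 CPM, SESN3, a sestrin that restrains MTOR complex 1, at 189 ± 45.5 CPM and SEH1L, a nuclear pore protein that also relays amino acid signals, at 95.8 ± 14.7 CPM. RRAGD (6, 2 and 17 reads) and KPTN (2, 11 and 9 reads) were the exceptions.

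AMPK partners had 8 of 9 measured. CAB39, a partner of the upstream kinase STK11, stood at 76.9 ± 14.9 CPM, and the AMPK subunits PRKAG1 and PRKAB1 at 64.1 ± 10.2 and 36.9 ± 2.11 CPM. PRKAG3, a subunit known from skeletal muscle, had 0 reads in every library. Transcriptional regulators had 5 of 7, with FOXO1 at 112 ± 19.4 and TFE3 at 65.4 ± 16.7 CPM. TFE3 and TFEB are related factors that switch on lysosomal and autophagy genes, and TFEB had 7, 13 and 7 reads and TFEC 0 in every library.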

How the data were processed

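The deposited values are raw counts of reads per gene in whole numbers, with 1 column a replicate. Per the submitters' processing notes, the tools were HTSeq 0.6.1, TopHat2 2.0.10 and bcl2fastq 2.18.0.12. Build, annotation, counting mode and strand setting were not given in the sources used here, so how reads in overlapping genes were assigned is not known. Reads set aside as ambiguous between genes were 0.237, 0.253 and 0.235% of replicates 1, 2 and 3. Per the labels' protocols, cDNA was amplified from thawed cells (NuGEN Ovation), 500 ng went into each library with 10 PCR cycles, and single reads of 100 bases were sequenced.

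The 5 summary rows that name no gene entered neither library sizes nor tests. They held 66.7 to 70.2% of reads. CPM came from edgeR 4.0.16 (R 4.3.3) with TMM scaling (factors 0.978, 1.02 and 0.998). Measured genes had 1 CPM or above in each library, and 0 reads allow up to 3 counts (0.356, 0.605 and 0.422 CPM). Replicates differed by more than counting noise, with a chi-square per degree of freedom of 11.8 to 45.1.

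With 1 group in the series there was nothing to compare between groups. Spread was tested with a negative binomial Pearson statistic on edgeR's trended dispersion (common coefficient of variation 0.273) against chi-square with 2 degrees of freedom, on 10434 genes that reached 10 counts in each library, and was checked on simulated data. DESeq2 1.42.0 was an alternative. Pairs were to be compared per transcript length. No lengths were at hand, so the uncorrected ratio, planned as an alternative, was used, and pathway genes were ranked by CPM.

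All 44 members are named, by role. Values in every library are given for the highest and lowest of each role, for pairs of 4-fold or more and for members under 1 CPM. Of the other pathway genes the 3 highest of each list are named, with those under 1 CPM in some library where these numbered 6 or fewer. Members, lists and pairs were chosen with earlier results of these data known. The 6 list genes without a row were not analysed here, and 1 further gene is not reported here. All 44 members matched the RefSeq gene table (ARS-UCD2.0), used only for names and neighbours. In it 17 members overlap another gene.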

Additional observations from a re-analysis of the deposited data

How the results depend on the processing

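No paired analysis was possible because the series has 1 group. The number of members measured was 40 with DESeq2 size factors, with no TMM factor and at 10 or more counts in every library, 41 by a mean of 1 CPM, and 40 to 42 with 1 replicate left out. The number of other pathway genes measured was 74 with DESeq2 size factors and at 10 or more counts, and 74 to 77 with 1 replicate left out. The count of members more variable than the trend was 0 under DESeq2 size factors, a common dispersion, DESeq2's trend, a lower filter of 1 count and each omission of a replicate, while calls among all genes ranged between 0 and 6. The pairs of 1 direction numbered 16 at pseudocounts of 0.1 and 1 CPM (leaving out a replicate cannot lower this count). With 1 replicate left out a member's mean moved by over 1.5-fold only for DEPTOR without replicate 1 or 3 and PRKAA2 without replicate 2 (0.187 CPM), and with DESeq2 size factors each of the 44 means moved by less than its SD. Lengths could not be varied, since none were used. ATG4B, ATG4D, DEPTOR and PRKAA2 rest on 1 to 32 reads in all, which widens their counting intervals. ATG4B and ATG4D had their fewest reads in the deepest library, and the part of depth in their low counts was not tested.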
